A study of Arabidopsis thaliana with 18 samples.

Results

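Whole 14-day-old seedlings of Arabidopsis thaliana, ecotype Col-0, were compared across the first 2 h of the day. The later group held 3 libraries of seedlings that were moved at zeitgeber time (ZT) 0, before the lights came on, to half-strength Murashige and Skoog medium with 0.1% dimethyl sulphoxide (DMSO), the solvent of the study's chemicals, and collected at ZT 2 (DMSO seedlings). The earlier group held 3 libraries of seedlings collected at ZT 0 without transfer (untreated seedlings). Before that, both groups had grown on the half-strength medium under a day of 12 h light followed by 12 h dark, and ZT counts hours from lights on. The series also holds 12 libraries of seedlings given 4 chemicals and collected at ZT 2, which are used here for the estimate of the spread and for a few levels set beside those of the DMSO libraries. Time of day, light, the move to new medium and the solvent differed together between the groups, so their parts in any difference cannot be told apart. The labels do not say whether the 3 libraries of a group came from separate plates, so p-values measure the spread between these libraries.

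The genes compared were every line of the deposited table that names a gene, with 1 line kept for each gene identifier. This gave 11437 genes, 41.5% of the 27562 protein-coding genes of the RefSeq annotation, and 9006 of them had enough counts to be tested. Genes of the remaining annotation, among them several well-known clock genes, were not analysed here. Genes were described in 24 lists written by role and in 28 classes taken from their RefSeq descriptions. Both were chosen with earlier results of these data known.

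Dawn is a turning point in the physiology of a leaf. At the end of the night the starch reserve is nearly used up and genes of nutrient recycling are active, and with light the plant turns to photosynthesis, sugar export and the building of pigments and defence compounds. The circadian clock, a loop of morning repressors and evening components that switch each other off, sets many transcripts ahead of this change, and photoreceptors, sugars and hormones act on the same genes.

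The 3 DMSO libraries held 3225907, 3249696 and 3167721 counts over the listed genes, and the 3 untreated libraries held 3216651, 3238194 and 3220182. Abundance is given as CPM, the share of a library's counts scaled with the trimmed mean of M-values (TMM), and 3 counts corresponded to 0.889 to 0.956 CPM in these libraries. The groups separated on the first principal component, which held 70.4% of the variance, with scores of -28.4, -50.1 and -40.4 for the DMSO libraries and 39.3, 42.2 and 37.3 for the untreated ones. DMSO libraries varied more among themselves: over 4588 well-expressed genes the median coefficient of variation was 12.9% in DMSO seedlings and 7.84% in untreated seedlings. The 11 tested markers of leaves summed to 21720, 18610 and 17400 CPM in DMSO seedlings and 19230, 14800 and 15760 CPM in untreated seedlings. The 11 tested of 20 root markers summed to 2632, 3023 and 2230 CPM in DMSO seedlings and 2730, 3795 and 3349 CPM in untreated seedlings, and the other 9 had at most 11 counts in any library. The part of these differences in the results below was not tested. In whole seedlings, fewer cells of a type and less RNA per cell cannot be told apart.

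DMSO libraries also fell into separate ranges for genes of the copper economy. FSD1 (AT4G25100), an iron superoxide dismutase of the chloroplast, had 1242, 0.956 and 1.20 CPM in DMSO seedlings and 1694, 1749 and 1735 CPM in untreated seedlings, and the difference between the groups was not called (edgeR, adjusted p = 0.548). CSD2 (AT2G28190), a copper and zinc superoxide dismutase of the chloroplast, had 387, 1696 and 1808 CPM in DMSO seedlings and 334, 317 and 281 CPM in untreated seedlings, with a log2 fold change of 2.06 ± 0.68 (SE; adjusted p = 0.0235, edgeR). CSD1 (AT1G08830), its cytosolic relative, had 216, 816 and 804 CPM in DMSO seedlings and 242, 243 and 189 CPM in untreated seedlings, and was not called (edgeR, adjusted p = 0.0504). DMSO library 1 thus sat near the untreated libraries at FSD1, CSD1 and CSD2, and DMSO libraries 2 and 3 stood apart from it. In the 12 libraries with chemicals FSD1 ranged from 0 to 1675 CPM, with a median of 2.63 CPM. Leaving out DMSO library 1 brought CSD1 past the threshold (edgeR, adjusted p = 0.0133), and leaving out any of the other 5 libraries ended the call of CSD2 (edgeR, adjusted p = 0.0592 to 0.0793).

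Of the 9006 genes tested, 3204 (35.6%) passed an adjusted p of 0.05 (quasi-likelihood F-test in edgeR, with Benjamini-Hochberg adjustment) and are called changed. Of these, 1766 were higher in DMSO seedlings (19.6% of the genes tested) and 1438 were lower (16.0%). Counts of the lists and classes below are to be read against these shares. Changes of at least 2-fold were more often increases, with 842 genes higher (9.35%) and 476 lower (5.29%), and the largest increases were larger than the largest decreases. The median log2 fold change over all genes was 0.015. The values of the 3 DMSO and the 3 untreated libraries did not overlap for 4453 genes (49.4%). When each of the 6 libraries was left out in turn, 1173 of the 1766 higher genes and 901 of the 1438 lower genes were called every time.

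**Figure D1:**
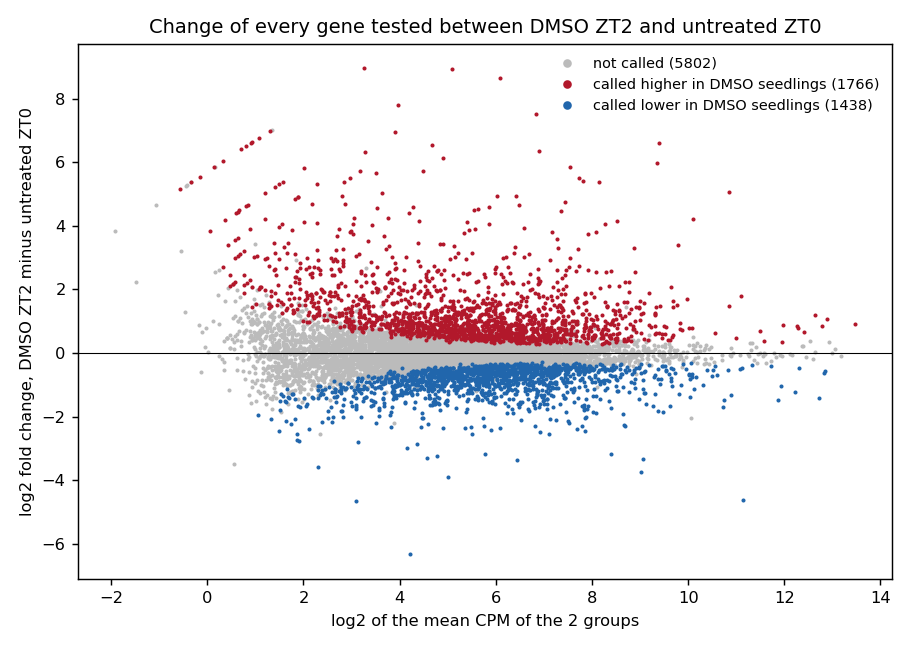
Change of every gene tested. Each point is 1 of 9006 genes, with the log2 of its mean CPM over the 2 groups on the x axis and its log2 fold change, DMSO ZT 2 minus untreated ZT 0, on the y axis. Red points are the 1766 genes called higher, blue points the 1438 called lower and grey points the rest, and increases reach further from 0 than decreases do.

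The largest decrease among well-expressed genes was that of SAG21 (AT4G02380), which encodes a small late embryogenesis abundant protein. SAG21 had 122, 132 and 279 CPM in DMSO seedlings and 3039.8, 5729.9 and 4331 CPM in untreated seedlings, with a log2 fold change of -4.62 ± 0.38 (SE; adjusted p = 2.28e-08, edgeR). DRM1 (listed as DYL1, AT1G28330), a dormancy-associated gene that sugar represses, had 11.9, 16.3 and 17.4 CPM in DMSO seedlings and 159.7, 166 and 149 CPM in untreated seedlings. PMR6 (AT3G54920), a pectate lyase-like gene, had 79.2, 56.7 and 66.2 CPM in DMSO seedlings and 632, 624 and 562 CPM in untreated seedlings. Every DMSO library lay below every untreated library at these 3 genes, which were all called, and part of the PMR6 counts were not whole, so that PMR6 may share reads with another gene. SPL3 (AT2G33810), a promoter of flowering, had 3.76, 3.51 and 4.51 CPM in DMSO seedlings and 33.3, 34.4 and 27.3 CPM in untreated seedlings, and WCRKC1 (AT5G06690), a thioredoxin, had 5.95, 3.19 and 5.71 CPM in DMSO seedlings and 42.6, 32.3 and 34.4 CPM in untreated seedlings. Among the 12 largest increases were 5 genes of jasmonate synthesis and response, 3 of the cold and dehydration response, the heat shock gene HSP70 (AT3G12580) and the clock gene LNK1 (AT5G64170), which are described with their groups. SPL3 and WCRKC1 were called as well, and no DMSO value of either gene reached an untreated one.

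Genes of the morning side of the clock had diverged by ZT 2. LNK1, LNK2 and LNK3 encode light-inducible coactivators that act with the REVEILLE proteins, and all 3 were higher in DMSO seedlings. LNK1, AT5G64170, had 419, 466 and 435 CPM in DMSO seedlings and 5.86, 9.97 and 15.4 CPM in untreated seedlings, with a log2 fold change of 5.39 ± 0.23 (SE; adjusted p = 3.49e-12, edgeR). LNK3 (AT3G12320) had 194, 156 and 165 CPM in DMSO seedlings and 59.5, 77.3 and 67.5 CPM in untreated seedlings, with a log2 fold change of 1.33 ± 0.16 (SE; adjusted p = 1.64e-06, edgeR). LNK2 (AT3G54500) had 1953, 1213 and 2328 CPM in DMSO seedlings and 1151, 1224 and 1166 CPM in untreated seedlings, and its DMSO library 2 lay within the untreated range. Its log2 fold change of 0.63 passed the test (edgeR, adjusted p = 0.0164), but not without DMSO library 3 (0.43 on the log2 scale; edgeR, adjusted p = 0.116). The morning repressor LHY (AT1G01060), a MYB-like factor, was lower: it had 969.5, 810.3 and 925 CPM in DMSO seedlings and 2417, 2613 and 2525 CPM in untreated seedlings, with a log2 fold change of -1.48 ± 0.15 (SE; adjusted p = 2.14e-07, edgeR). Its relative RVE1 (AT5G17300), which links the clock to auxin synthesis, had 146, 127 and 149.8 CPM in DMSO seedlings and 617, 732 and 664 CPM in untreated seedlings, with a log2 fold change of -2.25 ± 0.14 (SE; adjusted p = 5.03e-10, edgeR). LHY and RVE1 lay below every untreated value in all 3 DMSO libraries, and LNK1 and LNK3 lay above every untreated value. Part of the counts of LNK1 were not whole, so it may share reads with another gene.

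Of 9 tested genes of the evening side, 5 were lower and 2 were higher in DMSO seedlings, with a median log2 fold change of -0.84. The median was -1.43 without DMSO library 3 and -0.89 to -0.71 without any other library. TOC1 (AT5G61380), the pseudo-response regulator that defines the evening phase, had 27.2, 19.1 and 19.9 CPM in DMSO seedlings and 58.9, 64.7 and 64.9 CPM in untreated seedlings, with a log2 fold change of -1.51 ± 0.21 (SE; adjusted p = 1.38e-05, edgeR). JMJD5 (AT3G20810), a histone demethylase of the clock, had 3.44, 3.51 and 5.11 CPM in DMSO seedlings and 59.2, 70.1 and 52.7 CPM in untreated seedlings, with a log2 fold change of -3.90 ± 0.30 (SE; adjusted p = 1.01e-08, edgeR). COR27 (AT5G42900), a repressor controlled by both cold and the clock, had 0.313, 0 and 0.902 CPM in DMSO seedlings and 37.6, 41.99 and 29.9 CPM in untreated seedlings. These values are 1, 0 and 3 counts in DMSO libraries, against 122, 139 and 101 counts in untreated libraries, and the gene was called (edgeR, adjusted p = 5.09e-08). LKP2 (AT2G18915), a blue light receptor that targets clock proteins for degradation, was lower, with a log2 fold change of -0.84 (edgeR, adjusted p = 0.000109). At TOC1, JMJD5 and COR27 every DMSO value lay below every untreated one.

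A pair of glycine-rich RNA-binding proteins moved in opposite directions. GRP7 (AT2G21660) had 53.5, 59.9 and 47.2 CPM in DMSO seedlings and 233, 236 and 209 CPM in untreated seedlings, with a log2 fold change of -2.08 ± 0.29 (SE; adjusted p = 1.36e-05, edgeR). GRP8 (listed as CCR1, AT4G39260) had 109, 127 and 119 CPM in DMSO seedlings and 51.8, 56.5 and 61.3 CPM in untreated seedlings, with a log2 fold change of 1.06 ± 0.23 (SE; adjusted p = 0.00116, edgeR). LUX (listed as PCL1, AT3G46640) is the DNA-binding member of the evening complex, and it too was higher, with 50.7, 101 and 101 CPM in DMSO seedlings and 34.5, 45.3 and 40.3 CPM in untreated seedlings and a log2 fold change of 1.07 (edgeR, adjusted p = 0.0125). GRP7 lay lower in every DMSO library, whereas GRP8 and LUX lay higher in every one. The call of LUX (PCL1) ended without DMSO library 2, DMSO library 3 or untreated library 1 (edgeR, adjusted p = 0.0503 to 0.0528), and part of its counts were not whole.

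The promoters of GRP7 and LUX are shown because they carry the clock's own control sequences. The evening element core AATATCT, bound by LHY and its relatives, was searched on both strands, where it reads AGATATT on the other strand, in the 250 bases before the annotated start of each gene (RefSeq TAIR10.1, 5′ to 3′ on the gene's strand, matches in capitals). GRP7, which was lower, holds 3 matches, and LUX, which was higher, holds 2.

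GRP7 chr2:9266558-9266807 (minus strand): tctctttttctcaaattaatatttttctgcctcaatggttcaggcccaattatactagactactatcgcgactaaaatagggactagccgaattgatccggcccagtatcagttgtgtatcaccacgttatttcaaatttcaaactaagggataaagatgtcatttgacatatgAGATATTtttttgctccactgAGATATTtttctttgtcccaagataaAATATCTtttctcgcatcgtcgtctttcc

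PCL1 chr3:17182792-17183041 (plus strand): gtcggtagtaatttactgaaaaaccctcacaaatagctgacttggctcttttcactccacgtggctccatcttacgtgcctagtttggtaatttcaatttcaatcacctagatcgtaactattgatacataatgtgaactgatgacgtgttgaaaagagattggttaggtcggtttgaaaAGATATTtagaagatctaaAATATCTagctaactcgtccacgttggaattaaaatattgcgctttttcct

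In GRP7 the matches begin 76, 55 and 29 bases before the start, and in PCL1 70 and 51 bases before it. The core was in 6 of 9 promoters of the evening list (66.7%), in 10.0% of all 27443 promoters and in 9.87% of those of the genes tested. It was in 10.8% of the promoters of genes at least 2-fold higher and in 13.0% of those of genes at least 2-fold lower. None of these matches overlapped another motif searched. The morning genes LHY and LNK3 hold the G-box CACGTG, which reads the same on both strands and is recognised by phytochrome-interacting factors and HY5.

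LHY chr1:37872-38121 (minus strand): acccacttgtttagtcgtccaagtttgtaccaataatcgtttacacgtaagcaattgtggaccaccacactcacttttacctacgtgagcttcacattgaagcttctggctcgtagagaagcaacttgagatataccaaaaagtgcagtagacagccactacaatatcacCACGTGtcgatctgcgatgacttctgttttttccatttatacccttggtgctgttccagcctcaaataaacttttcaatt

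LNK3 AT3G12320 chr3:3923265-3923514 (plus strand): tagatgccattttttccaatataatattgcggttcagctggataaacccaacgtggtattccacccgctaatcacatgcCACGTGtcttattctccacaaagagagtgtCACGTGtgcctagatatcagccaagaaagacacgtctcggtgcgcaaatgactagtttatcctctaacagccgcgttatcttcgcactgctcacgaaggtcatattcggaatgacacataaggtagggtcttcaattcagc

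The match begins 80 bases before the start in LHY, and the 2 matches begin 171 and 141 bases before it in LNK3. The G-box was in 3 of the 5 promoters of the morning list, in 6.49% of all promoters and in 7.63% of those of the genes tested. It was in 12.8% of the promoters of genes at least 2-fold higher and in 6.09% of those of genes at least 2-fold lower. Of the morning genes shown, LHY was lower and LNK3 was higher.

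**Figure D2:**
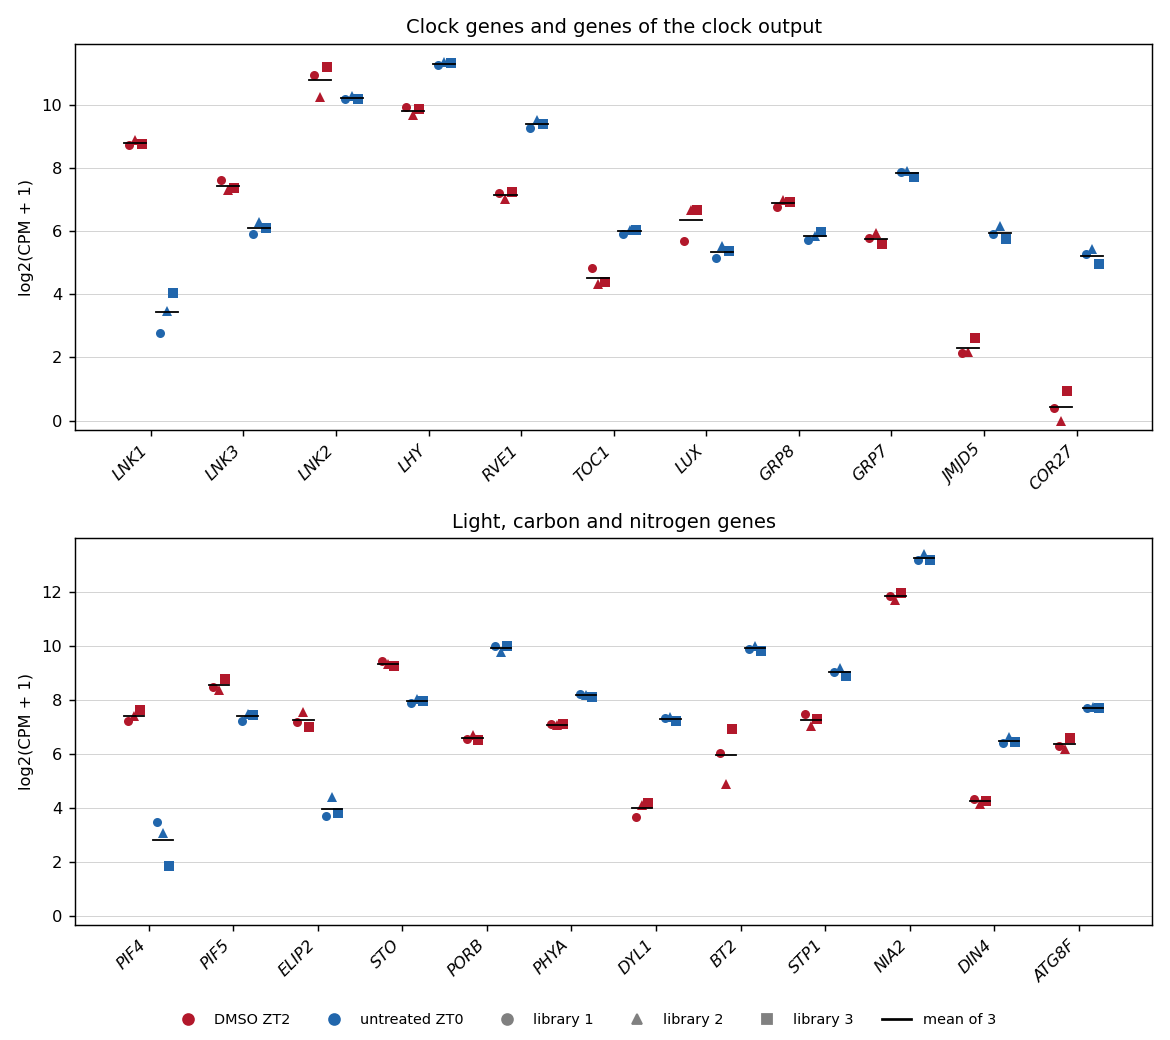
Clock genes and genes of the clock output (upper panel) and light, carbon and nitrogen genes (lower panel) in each library. The y axis is log2(CPM + 1). Red symbols are DMSO ZT 2, blue symbols untreated ZT 0, the 3 shapes are the 3 libraries of a group, and the line is the mean of the 3 plotted values. LNK1, PIF4 and ELIP2 lie higher and COR27, JMJD5, PORB, DYL1 (DRM1) and BT2 lie lower in every DMSO library.

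Light signalling genes changed in both directions: of 36 tested, 13 were higher (36.1%) and 12 were lower (33.3%) in DMSO seedlings. The median log2 fold change was 0.12. Of the phytochrome-interacting factors, which promote growth and whose proteins are degraded in light, PIF4 and PIF5 were higher. PIF4 (AT2G43010) had 149, 168 and 199.7 CPM in DMSO seedlings and 10.2, 7.55 and 2.67 CPM in untreated seedlings, with a log2 fold change of 4.66 ± 0.25 (SE; adjusted p = 1.17e-10, edgeR). PIF5 (listed as PIL6, AT3G59060) had 357, 328 and 438 CPM in DMSO seedlings and 149, 179 and 176 CPM in untreated seedlings, with a log2 fold change of 1.16 ± 0.14 (SE; adjusted p = 1.62e-06, edgeR). PIF4 was among the largest increases of the lists and its groups lay far apart, while PIF3 (AT1G09530) and PIF1 (listed as PIL5, AT2G20180) were not called, with log2 fold changes of 0.29 and 0.22 (PIF3 passed without DMSO library 1, edgeR, adjusted p = 0.0379). HFR1 (AT1G02340) and ATHB2 (listed as HB-2, AT4G16780), both known from the response to shade, were higher, with log2 fold changes of 1.46 and 1.65. PIL1 (AT2G46970), a factor of the same response, had 7.51, 6.69 and 3.31 CPM in DMSO seedlings and at most 1 count in any untreated library.

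PHYA (AT1G09570), the photoreceptor of the dark-grown seedling, had 138, 133 and 136 CPM in DMSO seedlings and 296, 290.0 and 275 CPM in untreated seedlings, with a log2 fold change of -1.08 ± 0.15 (SE; adjusted p = 1e-05, edgeR). The ultraviolet receptor UVR8 (AT5G63860) was lower, with a log2 fold change of -0.48. ELIP2 (AT4G14690), an early light-induced protein that guards against excess light, had 144, 188 and 127 CPM in DMSO seedlings and 12.03, 20.2 and 13.03 CPM in untreated seedlings, with a log2 fold change of 3.34 ± 0.36 (SE; adjusted p = 6.47e-07, edgeR). Of 11 tested B-box proteins, regulators that help turn light into development, 6 were higher and 5 lower. STO (AT1G06040) had 698, 648 and 604 CPM in DMSO seedlings and 235, 264 and 249 CPM in untreated seedlings, with a log2 fold change of 1.38 ± 0.12 (SE; adjusted p = 5.77e-08, edgeR), and BBX29 (AT5G54470), BBX30 (AT4G15248) and BBX31 (AT3G21890) were higher, with log2 fold changes of 2.56, 1.99 and 2.61. COL3 (AT2G24790) had 399, 346 and 366 CPM in DMSO seedlings and 982, 902 and 821 CPM in untreated seedlings, with a log2 fold change of -1.28 ± 0.11 (SE; adjusted p = 5.13e-08, edgeR), so members of the family lay on opposite sides of the untreated level.

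The largest decrease among pigment genes was that of PORB (AT4G27440), which reduces protochlorophyllide in light. It had 92.9, 103 and 91.4 CPM in DMSO seedlings and 1024, 868 and 1029 CPM in untreated seedlings, with a log2 fold change of -3.35 ± 0.21 (SE; adjusted p = 8.06e-10, edgeR). In the 12 libraries with chemicals its level ranged from 69.04 to 128 CPM, with a median of 101 CPM. Of the 20 tested genes of chlorophyll and haem synthesis and breakdown, 4 were lower and 3 higher (median -0.22, and -0.38 without DMSO library 1). As shares of the list, both lay near those over all genes tested, 16.0% lower and 19.6% higher. Without DMSO library 1, the library with the highest value at 12 of the 20 genes, 7 were lower. The other lower genes were NYC1 (AT4G13250), of chlorophyll b breakdown, HEME1 (AT3G14930), of haem synthesis, and HEMG2 (AT5G14220), a protoporphyrinogen oxidase. The higher genes were GUN4 (AT3G59400), a regulator of magnesium chelatase, ACD1 (AT3G44880), of chlorophyll breakdown, and CLH1 (AT1G19670), a chlorophyllase induced by jasmonate. CLH1 had 403, 1475 and 661 CPM in DMSO seedlings and 92.8, 75.2 and 90.3 CPM in untreated seedlings, with a log2 fold change of 3.30 ± 0.48 (SE; adjusted p = 2.02e-05, edgeR). The call of HEMG2 ended without DMSO library 2, DMSO library 3 or untreated library 1 (edgeR, adjusted p = 0.0548 to 0.0831) and that of ACD1 without DMSO library 2 (edgeR, adjusted p = 0.0887), and part of the GUN4 counts were not whole.

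Photosystem and light-harvesting genes held 12 higher (28.6%, beside 19.6% of all genes) and 4 lower (9.52%, beside 16.0%) of 42 tested. The number higher was 8 without untreated library 2 and 10 to 13 without any other library. Their median was 0.10. Of the antenna proteins of photosystem I, LHCA1 (AT3G54890) had 9767, 8597 and 8393 CPM in DMSO seedlings and 4369, 3472 and 3846 CPM in untreated seedlings, with a log2 fold change of 1.19 ± 0.14 (SE; adjusted p = 1.5e-06, edgeR), and LHCA4 (AT3G47470) had 10665, 10392 and 9750.2 CPM in DMSO seedlings and 5806, 4072 and 4879 CPM in untreated seedlings, with a log2 fold change of 1.06 ± 0.14 (SE; adjusted p = 6.51e-06, edgeR). Lhca6 (AT1G19150) of the same antenna was higher, with 0.48 on the log2 scale (not called without untreated library 2, edgeR, adjusted p = 0.0687), and LHCA2 (AT3G61470) was not called, with -0.13 (edgeR, adjusted p = 0.435). LHCB6 (AT1G15820) of photosystem II and NPQ4 (AT1G44575), the sensor of excess light also called PsbS, were higher, with log2 fold changes of 0.77 and 0.69. LIL3:2 (AT5G47110), a light-harvesting-like protein, was lower, with 546, 557 and 503 CPM in DMSO seedlings and 1131, 1102 and 1047 CPM in untreated seedlings. The groups did not overlap at LHCA1, LHCA4 or LIL3:2. At 28 of the 42 genes DMSO library 1 was the highest of its group.

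Of 22 tested genes of carbon fixation and photorespiration, 1 was higher (4.54%) and 4 were lower (18.2%), with a median of -0.09. The share lower lay near the 16.0% over all genes tested, and the share higher lay below the 19.6% over all genes. GLDP1 (AT4G33010), the P subunit of glycine decarboxylase in photorespiration, had 7369, 7078 and 4659 CPM in DMSO seedlings and 3778, 3449.6 and 3338 CPM in untreated seedlings, with a log2 fold change of 0.85 ± 0.22 (SE; adjusted p = 0.00551, edgeR). GAPA (AT3G26650), glyceraldehyde-3-phosphate dehydrogenase of the Calvin cycle, had 6573, 5689 and 4851 CPM in DMSO seedlings and 9423, 8901 and 8370.2 CPM in untreated seedlings, with a log2 fold change of -0.64 ± 0.15 (SE; adjusted p = 0.00198, edgeR). GGT1 (AT1G23310), an aminotransferase of photorespiration, was lower, with a log2 fold change of -0.56. The other 2 lower genes, PGK1 (AT3G12780) and TIM (AT2G21170), had adjusted p of 0.041 and 0.0316 (edgeR), and each lost its call in 5 of the 6 fits without 1 library (edgeR, adjusted p = 0.0537 to 0.206). The number lower was 2 without DMSO library 2, DMSO library 3, untreated library 1 or untreated library 2, and the number higher was 2 without untreated library 1. DMSO library 1 was the highest of its group at 18 of the 22 genes and DMSO library 3 the lowest at 18.

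Of 19 tested starch genes, 9 were lower (47.4%, beside 16.0% of all genes) and 3 higher (15.8%, beside 19.6%), with a median of -0.52. LDA (AT5G04360), the limit dextrinase that cuts branch points, had 37.2, 37.6 and 21.96 CPM in DMSO seedlings and 76.5, 83.4 and 70.2 CPM in untreated seedlings, with a log2 fold change of -1.25 ± 0.19 (SE; adjusted p = 4.69e-05, edgeR). SEX4 (AT3G52180), a phosphatase that opens the granule surface, had 13.8, 17.2 and 9.32 CPM in DMSO seedlings and 26.5, 28.4 and 26.7 CPM in untreated seedlings, with a log2 fold change of -1.02 ± 0.24 (SE; adjusted p = 0.0023, edgeR). BAM3 (listed as CT-BMY, AT4G17090) is the main beta-amylase of the night and had 1461, 1545 and 1489 CPM in DMSO seedlings and 2231, 2254 and 1967 CPM in untreated seedlings, with a log2 fold change of -0.52 ± 0.13 (SE; adjusted p = 0.00406, edgeR). The phosphorylase PHS2 (AT3G46970), the plastid phosphoglucomutase PGM (AT5G51820) and the granule-initiating SS4 (AT4G18240) were lower, with log2 fold changes of -0.96, -0.92 and -0.96. The groups did not overlap at LDA, SEX4 or CT-BMY (BAM3). GBSS1 (AT1G32900), which makes amylose, was higher, with 1074, 1432 and 924 CPM in DMSO seedlings and 753, 619.9 and 647 CPM in untreated seedlings and a log2 fold change of 0.76 ± 0.16 (SE; adjusted p = 0.00074, edgeR).

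Of 35 tested genes of sucrose, trehalose and sugar transport, 19 were higher (54.3%, beside 19.6% of all genes) and 4 lower (11.4%, beside 16.0%). The median was 0.65. STP13 (listed as MSS1, AT5G26340), a hexose importer, had 57.6, 91.5 and 72.8 CPM in DMSO seedlings and 9.56, 11.5 and 7.70 CPM in untreated seedlings, with a log2 fold change of 2.94 ± 0.26 (SE; adjusted p = 5.51e-08, edgeR). The vacuolar fructose channels SWEET17 (AT4G15920) and SWEET16 (AT3G16690) were higher, with log2 fold changes of 1.58 and 1.15. CINV2 (AT4G09510), an invertase of the cytosol, had 117, 164 and 131 CPM in DMSO seedlings and 35.8, 34.1 and 40.6 CPM in untreated seedlings, with a log2 fold change of 1.90 ± 0.17 (SE; adjusted p = 5.09e-08, edgeR). TPS1 (AT1G78580), the enzyme that makes the sugar signal trehalose 6-phosphate, had 162, 127 and 149 CPM in DMSO seedlings and 91.3, 81.3 and 80.9 CPM in untreated seedlings, with a log2 fold change of 0.79 ± 0.12 (SE; adjusted p = 4.81e-05, edgeR), and the phosphatases TPPD (AT1G35910) and TPPG (AT4G22590), which remove it, were higher, with log2 fold changes of 3.85 and 1.27. HXK1 (AT4G29130), the glucose sensor, was higher, with a log2 fold change of 0.87. The lower genes were led by STP1 (AT1G11260), a hexose importer repressed by sugar, which had 177, 131 and 159 CPM in DMSO seedlings and 518, 574 and 469 CPM in untreated seedlings, with a log2 fold change of -1.74 ± 0.20 (SE; adjusted p = 1.45e-06, edgeR), and by TPS9 (AT1G23870), with a log2 fold change of -1.33. The other 2, SWEET2 (AT3G14770) and CINV1 (AT1G35580), were not called without DMSO library 2 (edgeR, adjusted p = 0.138 and 0.0825), which left 2 lower, and SWEET2 was not called either without DMSO library 1, untreated library 2 or untreated library 3 (edgeR, adjusted p = 0.0866 to 0.142). Part of the STP1 counts were not whole.

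Genes listed for carbon starvation, among them regulators, did not move as 1 block. Of 20 tested, 8 were lower and 6 higher, with a median of -0.05 (-0.43 without DMSO library 1 and 0.26 without DMSO library 2). The lower ones included genes of amino acid breakdown. DIN4 (AT3G13450), of branched-chain amino acid breakdown, had 19.4, 16.9 and 18.3 CPM in DMSO seedlings and 83.9, 99.1 and 86.5 CPM in untreated seedlings, with a log2 fold change of -2.30 ± 0.17 (SE; adjusted p = 4.38e-09, edgeR). MCCA (AT1G03090), of leucine breakdown, had 48.2, 28.4 and 37.00 CPM in DMSO seedlings and 168, 222 and 171 CPM in untreated seedlings, with a log2 fold change of -2.30 ± 0.21 (SE; adjusted p = 9.55e-08, edgeR). GDH1 (AT5G18170), a glutamate dehydrogenase, was lower, with a log2 fold change of -1.39. The higher ones included regulators: bZIP11 (listed as GBF6, AT4G34590) had 36.9, 38.2 and 37.3 CPM in DMSO seedlings and 16.3, 13.9 and 14.8 CPM in untreated seedlings, with a log2 fold change of 1.32 ± 0.19 (SE; adjusted p = 2.43e-05, edgeR), and bZIP2 (AT2G18160) was higher, with a log2 fold change of 1.26. DIN9 (AT1G67070), a mannose 6-phosphate isomerase, had 27.9, 63.7 and 48.7 CPM in DMSO seedlings and 5.24, 10.6 and 7.70 CPM in untreated seedlings, with a log2 fold change of 2.57 ± 0.37 (SE; adjusted p = 2.16e-05, edgeR). Without untreated library 3 the number higher was 3. The list's median in the single DMSO libraries, each set against the untreated mean, was 0.12, -0.85 and 0.12. Part of the MCCA counts were not whole.

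Autophagy genes, which recycle cell contents at night, were lower or not called. Of 13 tested, 6 were lower (46.2%, beside 16.0% of all genes) and 0 higher. The medians were -0.51, -0.50 and -0.50 in the 3 DMSO libraries. ATG8F (AT4G16520), a ubiquitin-like protein of the autophagosome membrane, had 77.6, 72.02 and 96.2 CPM in DMSO seedlings and 209.7, 212 and 207 CPM in untreated seedlings, with a log2 fold change of -1.35 ± 0.15 (SE; adjusted p = 6.55e-07, edgeR). ATG8C (AT1G62040) of the same family and the cargo receptor NBR1 (AT4G24690) were lower, with log2 fold changes of -0.98 and -0.74. The groups did not overlap at any of these 3 genes.

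Nitrogen assimilation held 7 lower (36.8%, beside 16.0% of all genes) and 3 higher (15.8%, near the 19.6% of all genes) of 19 tested. The median was -0.03. BT2 (AT3G48360), a scaffold protein that nitrate induces and that responds to sugar, had 65.7, 28.7 and 121 CPM in DMSO seedlings and 950.5, 1026 and 908 CPM in untreated seedlings, with a log2 fold change of -3.74 ± 0.49 (SE; adjusted p = 7.41e-06, edgeR). NIA2 (AT1G37130), the main nitrate reductase, had 3662, 3361 and 3954 CPM in DMSO seedlings and 9309, 10791 and 9169 CPM in untreated seedlings, with a log2 fold change of -1.41 ± 0.16 (SE; adjusted p = 1.16e-06, edgeR). BT1 (AT5G63160), a relative of BT2, was lower, with a log2 fold change of -1.14, and the asparagine synthetase ASN2 (AT5G65010) was lower, with -0.77. The ammonium transporter AMT1;2 (AT1G64780) had 383, 439 and 416 CPM in DMSO seedlings and 73.7, 59.5 and 68.4 CPM in untreated seedlings, with a log2 fold change of 2.62 ± 0.14 (SE; adjusted p = 1.17e-10, edgeR). BT2, NIA2 and AMT1;2 showed no overlap between the groups.

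Of 16 tested genes of sulphate assimilation, which turns sulphate into cysteine and glutathione, 10 were higher (62.5%) and 2 lower (12.5%). The shares over all genes were 19.6% higher and 16.0% lower, and the list's median was 0.63. APK1 (listed as APK, AT2G14750) makes the activated sulphate donor and had 213, 547 and 279 CPM in DMSO seedlings and 57.4, 51.7 and 63.98 CPM in untreated seedlings, with a log2 fold change of 2.59 ± 0.26 (SE; adjusted p = 2.91e-07, edgeR). APS3 (AT4G14680), an ATP sulphurylase, had 88.9, 209 and 103 CPM in DMSO seedlings and 26.5, 20.2 and 22.8 CPM in untreated seedlings, with a log2 fold change of 2.52 ± 0.28 (SE; adjusted p = 7.78e-07, edgeR). APR3 (AT4G21990), a reductase of activated sulphate, had 484, 525 and 485 CPM in DMSO seedlings and 132, 239 and 211 CPM in untreated seedlings, with a log2 fold change of 1.36 ± 0.17 (SE; adjusted p = 3.34e-06, edgeR). GSH1 (AT4G23100), the first enzyme of glutathione synthesis, and the vacuolar sulphate exporter SULTR4;1 (AT5G13550) were higher, with log2 fold changes of 0.64 and 1.57. DMSO library 2 was the highest of its group at 13 of the 16 genes. OASB (AT2G43750) and APS4 (AT5G43780) were the 2 lower genes, with log2 fold changes of -0.81 and -0.35. The call of APS4 ended in 4 of the 6 fits without 1 library (edgeR, adjusted p = 0.105 to 0.175), and part of the OASB counts were not whole.

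Glucosinolates are defence compounds of the cabbage family that are made from methionine or tryptophan. Of 18 tested genes of their synthesis, transport and breakdown, 16 were higher (88.9%, beside 19.6% of all genes) and 0 lower. This share higher was the highest of the 24 lists, and the median log2 fold change was 2.21. The side chain of methionine is lengthened first: IPMI1 (AT3G58990) had 176, 355 and 272 CPM in DMSO seedlings and 16.96, 19.6 and 21.3 CPM in untreated seedlings, with a log2 fold change of 3.79 ± 0.21 (SE; adjusted p = 1.86e-10, edgeR), and BCAT4 (AT3G19710) had 287, 369 and 297 CPM in DMSO seedlings and 47.8, 43.2 and 55.98 CPM in untreated seedlings, with a log2 fold change of 2.70 ± 0.18 (SE; adjusted p = 1.15e-09, edgeR). CYP79F1 (AT1G16410), which starts the core structure from methionine derivatives, had 429.7, 563 and 356 CPM in DMSO seedlings and 32.1, 33.2 and 36.4 CPM in untreated seedlings, with a log2 fold change of 3.73 ± 0.22 (SE; adjusted p = 3.51e-10, edgeR). CYP79B2 (AT4G39950), which starts it from tryptophan, had 119.5, 402 and 189 CPM in DMSO seedlings and 92.2, 65.9 and 91.2 CPM in untreated seedlings, with a log2 fold change of 1.51 ± 0.31 (SE; adjusted p = 0.000833, edgeR). The later steps SUR1 (AT2G20610) and SOT16 (AT1G74100) were higher, with log2 fold changes of 2.59 and 2.74. The transporter GTR1 (AT3G47960) and the regulator MYB34 (AT5G60890) were higher too, with 1.86 and 2.20. In the single DMSO libraries the median lay at 1.84, 2.61 and 2.17 above the untreated mean. The groups did not overlap at IPMI1, BCAT4, CYP79F1 or CYP79B2.

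Flavonoid and phenylpropanoid genes held 13 higher (68.4%, beside 19.6% of all genes) and 1 lower (5.26%, beside 16.0%) of 19 tested (median 1.20). PAL1 (AT2G37040), the entry enzyme from phenylalanine, had 991, 1099.7 and 643 CPM in DMSO seedlings and 298, 202 and 238 CPM in untreated seedlings, with a log2 fold change of 1.89 ± 0.21 (SE; adjusted p = 6.79e-07, edgeR). TT4 (AT5G13930), chalcone synthase, had 595, 821 and 407 CPM in DMSO seedlings and 236, 154 and 208 CPM in untreated seedlings, with a log2 fold change of 1.61 ± 0.25 (SE; adjusted p = 5.16e-05, edgeR). F3H (AT3G51240), the next hydroxylase of the flavonoid branch, had 307, 370.3 and 312 CPM in DMSO seedlings and 46.9, 35.05 and 43.8 CPM in untreated seedlings, with a log2 fold change of 2.97 ± 0.19 (SE; adjusted p = 9.24e-10, edgeR). CAD5 (AT4G34230), CCoAOMT1 (AT4G34050) and HCT (AT5G48930), enzymes on the way to lignin, were higher too, with log2 fold changes of 1.57, 1.44 and 0.84. The lower gene was MYB111 (AT5G49330), a regulator of flavonols, with -1.18, and its call ended in 5 of the 6 fits without 1 library (edgeR, adjusted p = 0.0527 to 0.0952). The groups did not overlap at PAL1, TT4 or F3H, and F3H was the most even of the 3 among DMSO libraries.

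**Figure D3:**
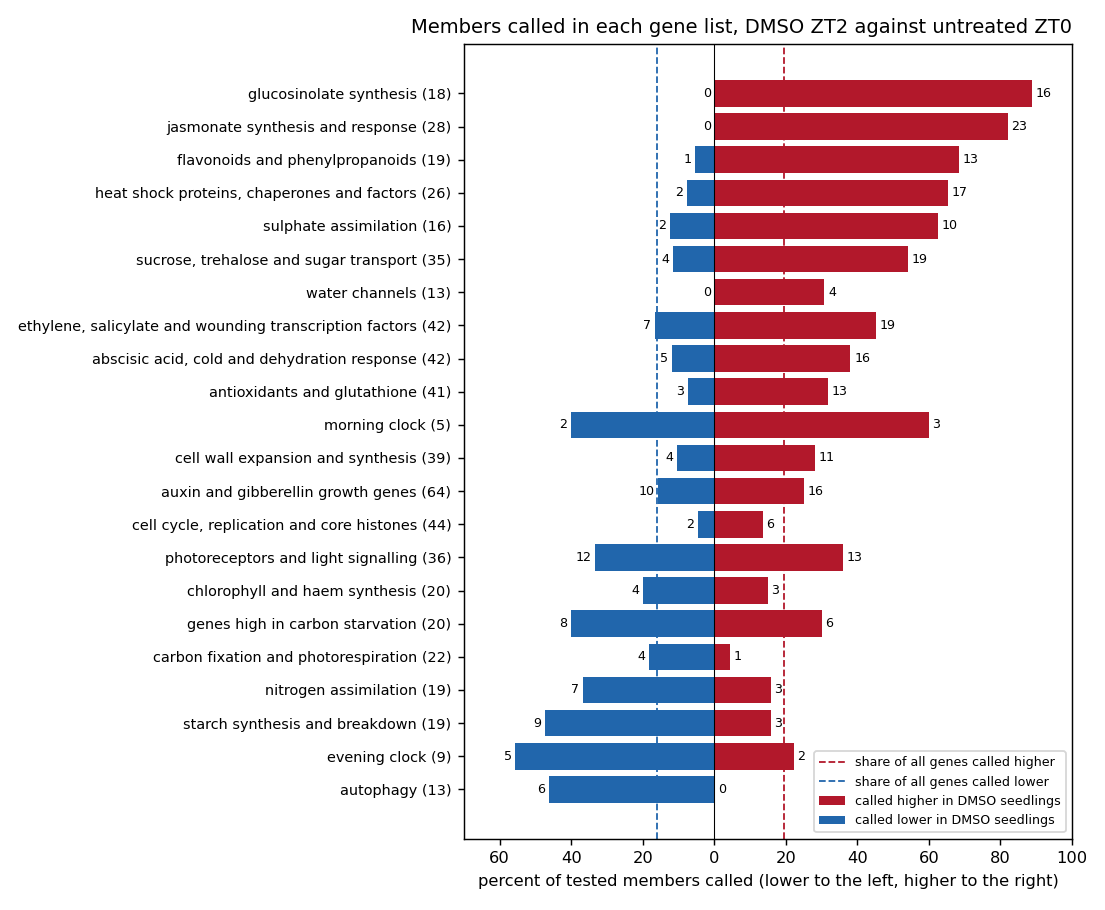
Members called in each list. Bars to the right give the percent of tested members called higher in DMSO seedlings and bars to the left the percent called lower, with the number of genes at the end of each bar and the number tested in parentheses. Dashed lines mark the shares over all 9006 genes, 19.6% higher and 16.0% lower. Glucosinolate (16 of 18) and jasmonate (23 of 28) genes were the most often higher, and autophagy (6 of 13) and starch (9 of 19) genes were more often lower than higher.

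The jasmonate list had the largest median change of the 24 lists. Jasmonate is a lipid-derived hormone of wounding and defence. Its synthesis starts in the chloroplast with lipoxygenase and allene oxide enzymes. The hormone releases the factor MYC2 from JAZ repressors and induces its own synthesis. Of 28 tested genes, 23 were higher in DMSO seedlings (82.1%, beside 19.6% of all genes) and 0 lower. Their median log2 fold change was 3.04. Among the enzymes, LOX2 (AT3G45140) had 1058, 7397 and 2370.4 CPM in DMSO seedlings and 131, 85.2 and 106 CPM in untreated seedlings, with a log2 fold change of 5.07 ± 0.61 (SE; adjusted p = 2.51e-06, edgeR). AOC2 (AT3G25770) had 171, 1067 and 416 CPM in DMSO seedlings and 10.8, 14.2 and 14.5 CPM in untreated seedlings, with a log2 fold change of 5.38 ± 0.59 (SE; adjusted p = 8.01e-07, edgeR), and OPR3 (AT2G06050) had 108, 537 and 213 CPM in DMSO seedlings and 37.6, 21.5 and 28.7 CPM in untreated seedlings, with a log2 fold change of 3.29 ± 0.53 (SE; adjusted p = 6.88e-05, edgeR). DMSO library 2 was the highest and DMSO library 1 the lowest of the group at all 3, and the lowest DMSO value was still above every untreated value.

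The factor MYC2 (AT1G32640) had 89.8, 405 and 186 CPM in DMSO seedlings and 0, 0 and 3.55 CPM in untreated seedlings, where the untreated values are 0, 0 and 12 counts, and it was called (edgeR, adjusted p = 6.44e-07). The repressors were higher as well: JAZ1 (AT1G19180) had 36.3, 139 and 66.5 CPM in DMSO seedlings and 3.08, 3.93 and 6.81 CPM in untreated seedlings, with a log2 fold change of 4.11 ± 0.60 (SE; adjusted p = 2.23e-05, edgeR), and JAZ6 (AT1G72450), JAZ9 (listed as TIFY7, AT1G70700) and JAZ2 (listed as TIFY10B, AT1G74950) were higher, with log2 fold changes of 2.93, 2.24 and 2.20. Among the targets, VSP2 (AT5G24770), a storage protein and classic marker of jasmonate, had 34.7, 492 and 175 CPM in DMSO seedlings and 3.08, 2.11 and 3.26 CPM in untreated seedlings, with a log2 fold change of 6.36 ± 0.94 (SE; adjusted p = 2.82e-05, edgeR), and CORI3 (AT4G23600) had 107, 868 and 272 CPM in DMSO seedlings and 9.56, 9.06 and 8.89 CPM in untreated seedlings, with a log2 fold change of 5.50 ± 0.76 (SE; adjusted p = 1.19e-05, edgeR). Genes that inactivate the active hormone, CYP94B3 (AT3G48520), CYP94C1 (AT2G27690), IAR3 (AT1G51760) and ILL6 (AT1G44350), were among the 23. Part of the MYC2 counts were not whole.

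The size of the jasmonate change differed between DMSO libraries. The list's median lay at 1.67, 3.73 and 2.72 above the untreated mean in DMSO libraries 1, 2 and 3, and library 2 was the highest of the group at 26 of the 28 genes. LOX2 ranged from 1058 to 7397 CPM among DMSO libraries and, in the 12 libraries with chemicals, from 1080.3 to 7986 CPM, with a median of 3322 CPM. VSP2 in those 12 libraries ranged from 50.6 to 607 CPM, with a median of 165 CPM.

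**Figure D4:**
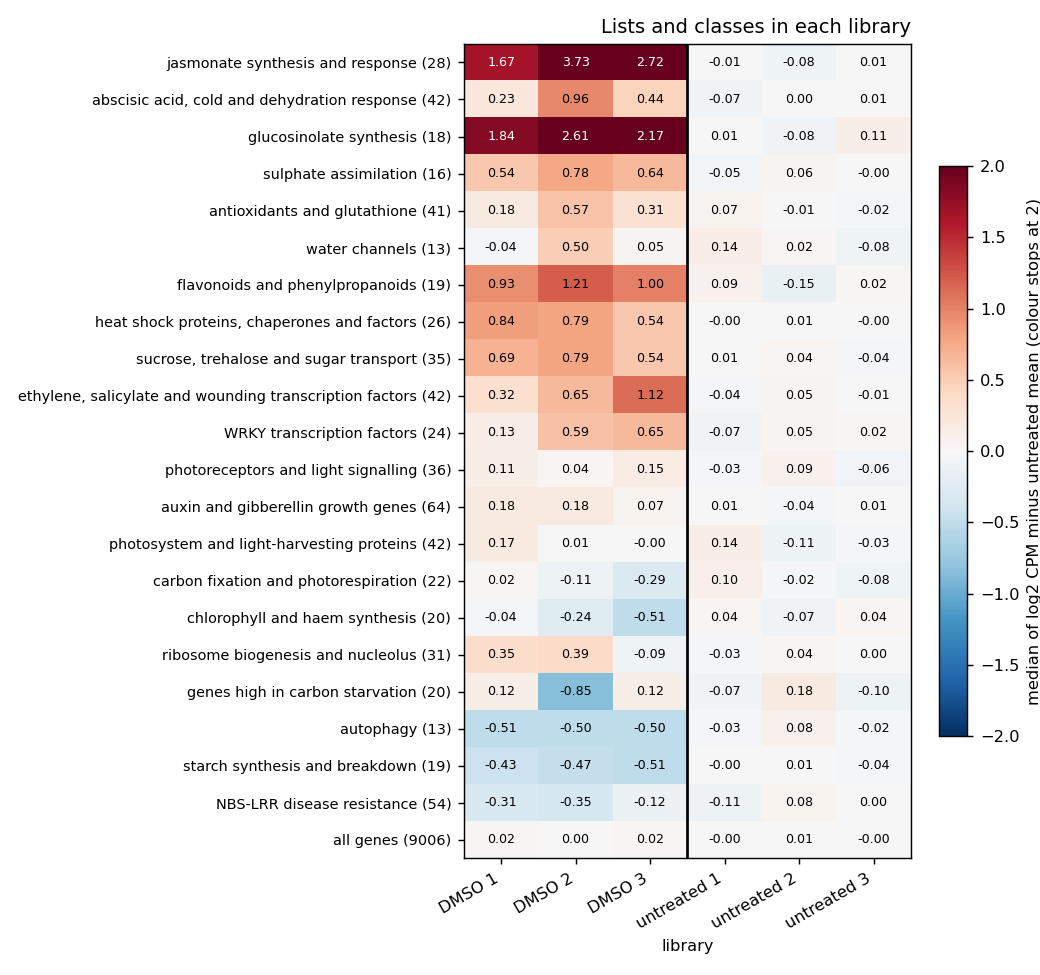
Median change of lists and classes in each library. Each cell is the median, over the tested members (number in parentheses), of log2 CPM minus the mean of the 3 untreated libraries, with DMSO libraries left of the black line and untreated libraries right of it. Jasmonate genes lie at 1.67, 3.73 and 2.72 in the DMSO libraries, autophagy genes at about -0.50 in all 3, and all genes between -0.0031 and 0.0213 over the 6 libraries.

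Genes of abscisic acid, cold and dehydration held 16 higher (38.1%) and 5 lower (11.9%) of 42 tested (median 0.76). The median was 0.39 without DMSO library 2 and 0.68 to 0.88 without any other library. The higher ones were led by protective proteins of cold and drought. COR15A (AT2G42540), a chloroplast protein of freezing tolerance, had 421, 2233 and 1335 CPM in DMSO seedlings and 20.4, 9.06 and 11.3 CPM in untreated seedlings, with a log2 fold change of 6.61 ± 0.61 (SE; adjusted p = 9.24e-08, edgeR). RD29A (listed as LTI78, AT5G52310) had 681, 2251 and 956 CPM in DMSO seedlings and 13.3, 20.5 and 27.3 CPM in untreated seedlings, with a log2 fold change of 5.99 ± 0.40 (SE; adjusted p = 1.51e-09, edgeR). RD20 (AT2G33380), a lipid droplet protein, had 15.02, 303 and 58.05 CPM in DMSO seedlings and 5.86, 2.11 and 4.15 CPM in untreated seedlings, with a log2 fold change of 4.94 ± 1.11 (SE; adjusted p = 0.00159, edgeR). GolS3 (AT1G09350), which starts the synthesis of raffinose sugars, had 30.7, 59.3 and 42.7 CPM in DMSO seedlings and 0.308, 0.906 and 1.18 CPM in untreated seedlings, with 1, 3 and 4 counts in untreated libraries, and was called (edgeR, adjusted p = 1.54e-08). COR15A, RD29A and GolS3 were high in all 3 DMSO libraries, whereas RD20 was high mainly in DMSO library 2. LEA4-5 (AT5G06760), a desiccation protein, had 1.56, 41.1 and 5.71 CPM in DMSO seedlings and 1.23, 1.51 and 2.67 CPM in untreated seedlings. Its call (edgeR, adjusted p = 0.0141) ended without DMSO library 2 (log2 fold change 1.01; edgeR, adjusted p = 0.425) and without untreated library 1 or 2 (edgeR, adjusted p = 0.0524 and 0.0512). At 27 of the 42 genes DMSO library 2 was the highest of its group. Genes that inactivate abscisic acid, CYP707A1 (AT4G19230) and CYP707A4 (AT3G19270), were higher, with log2 fold changes of 1.83 and 3.84. The largest decrease of the list was that of SAG21, described above.

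The promoter of COR15A is shown with its G-box CACGTG in capitals (RefSeq TAIR10.1, 250 bases before the annotated start, 5′ to 3′ on the gene's strand).

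COR15A chr2:17712331-17712580 (minus strand): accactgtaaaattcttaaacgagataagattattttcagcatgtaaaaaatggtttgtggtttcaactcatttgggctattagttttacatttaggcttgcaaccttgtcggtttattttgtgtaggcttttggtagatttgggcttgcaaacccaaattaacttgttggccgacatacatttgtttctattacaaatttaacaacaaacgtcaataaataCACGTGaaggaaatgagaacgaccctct

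The match begins 28 bases before the start. A G-box was in 12 of the 42 promoters of the list (28.6%), beside 7.63% of those of the genes tested.

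Regulators of ethylene, salicylate and wounding held 19 higher (45.2%, beside 19.6% of all genes) and 7 lower (16.7%, beside 16.0%) of 42 tested (median 0.93). The median was 0.56 without DMSO library 3 and 0.85 to 1.04 without any other library. RAP2.6 (AT1G43160), a wound- and jasmonate-responsive ethylene response factor, had 30.98, 87.6 and 58.95 CPM in DMSO seedlings and 0.308, 0.906 and 1.18 CPM in untreated seedlings, with 1, 3 and 4 counts in untreated libraries, and was called (edgeR, adjusted p = 1.26e-06). ERF2 (AT5G47220) and ERF4 (AT3G15210), an activator and a repressor of the same family, were higher, with log2 fold changes of 2.47 and 1.43. TCH4 (AT5G57560), a touch-induced cell wall enzyme, had 152, 38.2 and 83.3 CPM in DMSO seedlings and 13.9, 13.3 and 21.9 CPM in untreated seedlings, with a log2 fold change of 2.47 ± 0.58 (SE; adjusted p = 0.00222, edgeR), and the touch-induced calmodulin-like TCH2 (AT5G37770) had 105, 60.2 and 83.01 CPM in DMSO seedlings and 29.3, 26.3 and 30.8 CPM in untreated seedlings, with a log2 fold change of 1.52 ± 0.21 (SE; adjusted p = 1.32e-05, edgeR). Both touch genes were highest in DMSO library 1 and lowest in DMSO library 2, the reverse of the order at LOX2, AOC2 and OPR3. FRK1 (AT2G19190), a receptor kinase induced by flagellin, and MYB15 (AT3G23250) had at most 2 counts in any untreated library and reached 24.9 and 10.5 CPM in a DMSO library.

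The 7 lower genes of this list included receptors and signal carriers. The ethylene receptor ERS1 (AT2G40940) had 73.9, 65.3 and 83.9 CPM in DMSO seedlings and 96.5, 131 and 99.2 CPM in untreated seedlings, with a log2 fold change of -0.55 ± 0.14 (SE; adjusted p = 0.0045, edgeR). EDS1 (AT3G48090), a hub of salicylate-dependent immunity, had 23.8, 24.5 and 22.6 CPM in DMSO seedlings and 40.4, 36.9 and 37.9 CPM in untreated seedlings, with a log2 fold change of -0.70 ± 0.19 (SE; adjusted p = 0.00773, edgeR). The number lower was 4 without DMSO library 2 or untreated library 2. Of 24 tested WRKY factors, 8 were higher and 1 lower (2 lower without DMSO library 1), and DMSO library 3 was the highest of its group at 18 of them. WRKY18 (AT4G31800), a WRKY factor of basal defence, had 20.7, 21.99 and 25.6 CPM in DMSO seedlings and 2.78, 5.14 and 6.52 CPM in untreated seedlings, with a log2 fold change of 2.23 ± 0.37 (SE; adjusted p = 0.000105, edgeR). Of 54 tested intracellular resistance proteins of the NBS-LRR class, 14 were lower and 2 higher (median -0.26). The number higher was 1 without DMSO library 1, DMSO library 2 or any of the 3 untreated libraries. SUMM2 (AT1G12280), a resistance protein that guards a kinase cascade, had 14.7, 14.98 and 18.6 CPM in DMSO seedlings and 45.03, 43.2 and 50.9 CPM in untreated seedlings, with a log2 fold change of -1.52 ± 0.19 (SE; adjusted p = 3.13e-06, edgeR).

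**Figure D5:**
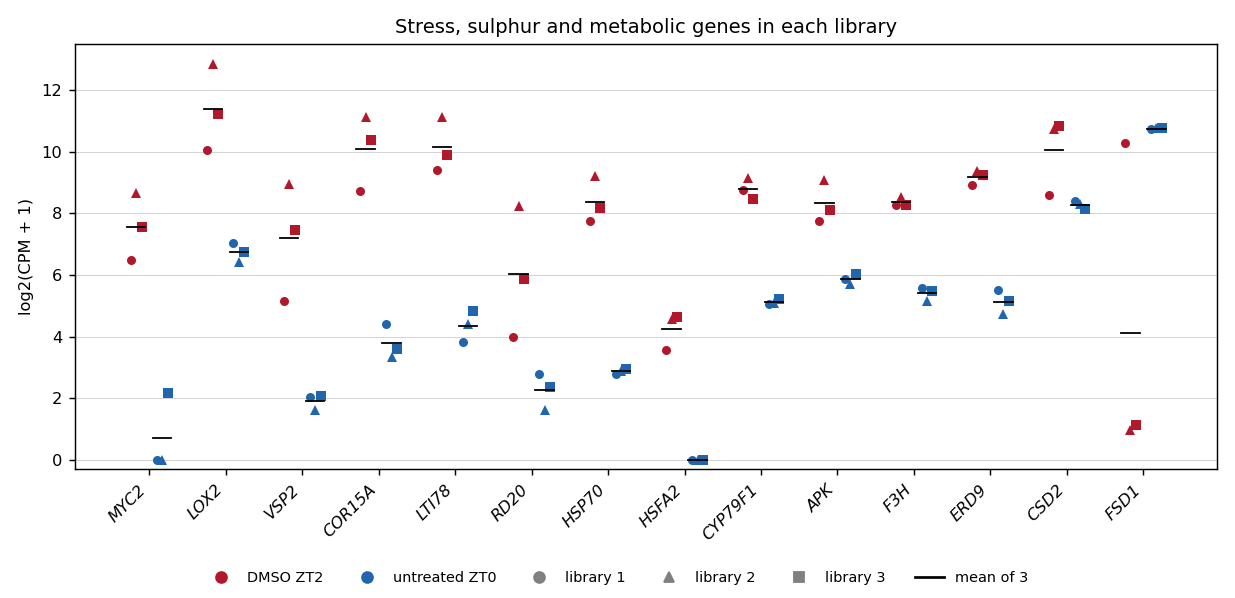
Stress, sulphur and metabolic genes in each library. The y axis is log2(CPM + 1). Red symbols are DMSO ZT 2, blue symbols untreated ZT 0, the 3 shapes are the 3 libraries of a group, and the line is the mean of the 3 plotted values, which for FSD1 in DMSO seedlings lies between DMSO library 1 at 1242 CPM and DMSO libraries 2 and 3 near 1 CPM. LOX2, COR15A, LTI78 (RD29A), HSP70 and CYP79F1 lie higher in every DMSO library, with DMSO library 2 (triangle) on top.

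Heat shock and chaperone genes held 17 higher (65.4%, beside 19.6% of all genes) and 2 lower (7.69%, beside 16.0%) of 26 tested (median 0.77). HSP70, an inducible cytosolic chaperone, had 217, 592 and 289 CPM in DMSO seedlings and 5.86, 6.34 and 6.81 CPM in untreated seedlings, with a log2 fold change of 5.84 ± 0.35 (SE; adjusted p = 3.97e-10, edgeR). AT3G09440, another cytosolic chaperone of the 70 kDa family, had 1816, 2833 and 1627 CPM in DMSO seedlings and 117, 108 and 110.5 CPM in untreated seedlings, with a log2 fold change of 4.22 ± 0.19 (SE; adjusted p = 5.75e-12, edgeR). HSP90.1 (AT5G52640) had 63.5, 167 and 105 CPM in DMSO seedlings and 7.09, 2.72 and 4.15 CPM in untreated seedlings, with a log2 fold change of 4.58 ± 0.39 (SE; adjusted p = 2.73e-08, edgeR). HSFA2 (AT2G26150), the heat shock factor that sustains the response, had 10.95, 22.9 and 23.8 CPM in DMSO seedlings and 0, 0 and 0 CPM in untreated seedlings. Its mean in DMSO seedlings, 19.2 ± 7.17 CPM (SD, n = 3), was at least 21.2-fold higher than the floor of 3 counts per untreated library (edgeR, adjusted p = 3.66e-05). The co-chaperones Hop3 (AT4G12400) and ROF1 (AT3G25230) were higher, with log2 fold changes of 2.61 and 1.57, and the calreticulins of the endoplasmic reticulum, CRT1a (AT1G56340) and CRT1b (AT1G09210), had 0.55 and 0.60. The factors HSFA5 (listed as AT-HSFA5, AT4G13980) and HSF3 (AT5G16820) were lower, with log2 fold changes of -1.41 and -0.93, and the call of HSF3 ended without DMSO library 2 or untreated library 1 (edgeR, adjusted p = 0.0568 and 0.0712). Of 15 small heat shock proteins and relatives, 7 were higher and 0 lower.

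The promoter of HSFA2 is shown because it holds the heat shock element searched, GAANNTTC, which reads the same on both strands (RefSeq TAIR10.1, 250 bases before the annotated start, 5′ to 3′ on the gene's strand, matches in capitals).

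HSFA2 chr2:11135374-11135623 (plus strand): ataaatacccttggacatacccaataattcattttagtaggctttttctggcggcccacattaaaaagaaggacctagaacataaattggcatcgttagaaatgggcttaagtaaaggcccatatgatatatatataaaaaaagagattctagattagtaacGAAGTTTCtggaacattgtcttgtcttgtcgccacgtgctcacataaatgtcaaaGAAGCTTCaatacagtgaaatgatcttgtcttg

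The 2 matches begin 88 and 33 bases before the start. HSFA2 was the only one of the 26 promoters of the list with this motif (3.85%), beside 9.55% of all promoters and 9.23% of those of the genes tested, and 7 of the 26 held a G-box (26.9%).

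Of 64 tested genes of auxin and gibberellin, 16 were higher (25.0%) and 10 lower (15.6%), with a median of 0.17. These shares lay near those over all genes tested, 19.6% higher and 16.0% lower. Of 35 tested auxin-responsive SAUR and AUX/IAA genes, 12 were higher (34.3%) and 0 lower (median 0.73). SAUR20 (AT5G18020), a short-lived promoter of cell expansion, had 20.97, 14.3 and 20.8 CPM in DMSO seedlings and 1.54, 2.11 and 1.18 CPM in untreated seedlings, with a log2 fold change of 3.50 ± 0.38 (SE; adjusted p = 7.64e-07, edgeR). SAUR20 belongs to a small group of closely similar SAUR genes, with which it may share reads. The repressor AXR3 (AT1G04250), also called IAA17, had 187, 178 and 164 CPM in DMSO seedlings and 85.1, 87.9 and 83.5 CPM in untreated seedlings, with a log2 fold change of 1.04 ± 0.14 (SE; adjusted p = 1.23e-05, edgeR), and SHY2 (AT1G04240), also called IAA3, was higher, with a log2 fold change of 1.19. The auxin receptor TIR1 (AT3G62980) had 188, 201 and 208 CPM in DMSO seedlings and 347, 382 and 364 CPM in untreated seedlings, with a log2 fold change of -0.87 ± 0.12 (SE; adjusted p = 7.41e-06, edgeR), and AFB1 (listed as GRH1, AT4G03190) and AFB5 (AT5G49980) of the same family were lower, with log2 fold changes of -0.92 and -0.49. The auxin importer LAX1 (AT5G01240) and the gibberellin-responsive GASA6 (AT1G74670) and GASA4 (AT5G15230) were lower, with log2 fold changes of -1.33, -2.20 and -1.28. GA2OX1 (listed as ATGA2OX1, AT1G78440), which inactivates gibberellin, had 0 counts in every untreated library and 4.69, 3.82 and 2.71 CPM in DMSO seedlings, at least 4.13-fold above the floor. Part of the SHY2 counts were not whole.

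Of 39 tested cell wall genes, 11 were higher (28.2%, beside 19.6% of all genes) and 4 lower (10.3%, beside 16.0%), with a median of 0.11. EXPB3 (AT4G28250), an expansin that loosens the wall, had 144, 175 and 146 CPM in DMSO seedlings and 51.2, 38.4 and 47.4 CPM in untreated seedlings, with a log2 fold change of 1.76 ± 0.18 (SE; adjusted p = 3.5e-07, edgeR). XTH4 (AT2G06850), a xyloglucan-remodelling enzyme, was lower, with a log2 fold change of -0.78, whereas its relatives XTH17, XTH18 and XTH20 were higher. The number lower was 2 without DMSO library 2 or DMSO library 3. Of 13 tested water channels, 4 were higher and 0 lower, led by GAMMA-TIP (AT2G36830) of the vacuole, with 790.2, 1169 and 864 CPM in DMSO seedlings and 383, 329.9 and 318 CPM in untreated seedlings and a log2 fold change of 1.45 ± 0.15 (SE; adjusted p = 2.46e-07, edgeR). Cell cycle and histone genes were mostly not called, with 6 of 44 higher (13.6%) and 2 lower (4.54%). RNR2A (AT3G23580), a subunit of the enzyme that makes DNA precursors, had 106, 110.3 and 88.4 CPM in DMSO seedlings and 31.8, 32.02 and 40.3 CPM in untreated seedlings, with a log2 fold change of 1.55 ± 0.12 (SE; adjusted p = 1.54e-08, edgeR).

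Antioxidant and glutathione genes held 13 higher (31.7%) and 3 lower (7.32%) of 41 tested (median 0.41). GSTU17 (listed as ERD9, AT1G10370), a glutathione transferase, had 480.1, 666 and 602 CPM in DMSO seedlings and 44.7, 25.4 and 34.7 CPM in untreated seedlings, with a log2 fold change of 4.06 ± 0.25 (SE; adjusted p = 4.5e-10, edgeR). VTC2 (AT4G26850), which controls ascorbate synthesis, had 2121, 2920.1 and 3086 CPM in DMSO seedlings and 1063, 923 and 954 CPM in untreated seedlings, with a log2 fold change of 1.47 ± 0.17 (SE; adjusted p = 1.84e-06, edgeR). AOX1A (AT3G22370), the alternative oxidase of mitochondria, was higher, with a log2 fold change of 1.40. At GSTU17 (ERD9) and VTC2 all 3 DMSO libraries lay above every untreated one, which was also so at CSD2 but with DMSO library 1 close to the untreated range.

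The shares of the larger gene families are to be read against those over all genes tested, 19.6% higher and 16.0% lower. UDP-glycosyltransferases held 20 higher (40.0%) and 7 lower (14.0%) of 50 tested, cytochromes P450 23 higher (31.9%) and 10 lower (13.9%) of 72, and NAC factors 9 higher (37.5%) and 0 lower of 24. ATAF2 (AT5G08790) and NAC102 (AT5G63790), stress-related NAC factors, were higher, with log2 fold changes of 1.48 and 1.29. Ethylene response and DREB factors held 13 higher (32.5%) and 4 lower (10.0%) of 40, and calcium sensors and their kinases 18 higher (30.5%) and 10 lower (16.9%) of 59. Receptor-like kinases, with 26 higher (26.0%) and 13 lower (13.0%) of 100, lay near the shares over all genes. FLS2 (AT5G46330), the flagellin receptor, was lower, with 12.8, 3.19 and 10.8 CPM in DMSO seedlings and 20.05, 37.2 and 33.2 CPM in untreated seedlings. Ubiquitin ligases and F-box proteins also lay near those shares, with 27 higher (13.5%) and 41 lower (20.5%) of 200. The number lower was 6 without DMSO library 2 for calcium sensors and 4 without untreated library 1 for UDP-glycosyltransferases. For calcium sensors 12 or 13 were higher without DMSO library 2 or any untreated library, and 16 without DMSO library 1 or 3. The number of ubiquitin ligases and F-box proteins higher was 17 without DMSO library 3 and 14 without untreated library 3.

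Of 139 tested proteins described as ribosomal with no organelle named, 18 were higher (12.9%) and 16 lower (11.5%; median 0.09), and the number lower was 8 to 10 without DMSO library 2, DMSO library 3, untreated library 1 or untreated library 2. Pentatricopeptide repeat proteins, which process organelle RNA, held 9 higher (7.63%) and 8 lower (6.78%) of 118, and 5 lower without DMSO library 2, DMSO library 3 or untreated library 2. Of 31 tested genes of ribosome assembly, 14 were higher (45.2%) and 6 lower (19.4%; median 0.27, and 0.14 to 0.42 when each library was left out in turn). AT1G52930, a ribosomal RNA processing protein, had 86.4, 81.9 and 75.5 CPM in DMSO seedlings and 38.2, 43.2 and 36.7 CPM in untreated seedlings, with a log2 fold change of 1.04 ± 0.13 (SE; adjusted p = 2.33e-06, edgeR). The rRNA dimethylase DIM1A (AT2G47420) was lower, with 60.1, 57.99 and 62.6 CPM in DMSO seedlings and 183, 192 and 169.7 CPM in untreated seedlings. The site II element TGGGCC was in 43.2% of the promoters of the ribosomal proteins, in 13.7% of all promoters and in 17.6% of those of the genes tested. It was in 9.86% of the promoters of genes at least 2-fold higher and in 16.2% of those of genes at least 2-fold lower. The telo-box AAACCCT was in 16.5% of the ribosomal protein promoters in 7.33% of all promoters and in 6.31% of those of the genes tested.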

How the data were processed

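Polyadenylated RNA of whole seedlings was sequenced in read pairs, per the labels' protocols. Per the submitters' processing notes, HISAT2 2.2.1, RSEM 1.2.22 and the genome build TAIR10 were used. The deposited table holds, for each library, RSEM expected counts, TPM and FPKM, per the file headers. The TPM and FPKM values that the authors deposited were not tested. The listed genes held 48.4 to 49.0% of each library's TPM, and the expected counts of 6.99% of genes were not whole in some library, so those genes may share reads with another. Of 29431 lines, 11981 named a gene, and 544 repeats, all identical, were dropped.

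Expected counts were rounded, filtered with filterByExpr, scaled with TMM and fitted in edgeR 4.0.16 (R 4.3.3) by quasi-likelihood over all 18 libraries, with 12 residual degrees of freedom. Benjamini-Hochberg adjustment ran over 9006 genes, and adjusted p under 0.05 is a call. The fit was also run on simulated counts with known changes, drawn with the spread that it had estimated. Those counts cannot show how the fit behaves on libraries that split as at FSD1. Log2 CPM used a prior count of 2. Names and promoters came from RefSeq TAIR10.1.

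The lists, classes and members were chosen with earlier results of these data known. The naming rule took called genes whose groups did not overlap and whose mean log2 CPM reached 3, the 12 largest changes each way and up to 3 each way per list or class, besides core genes of each list. Other genes named were chosen after their values were seen. Counts of list members cover tested members only. For 8 genes the locus and the name in the files differ, and these are not named. Alternatives were DESeq2 1.42.0, no TMM, other filters and thresholds, the compared groups only, a replicate block and leaving out each library. 1 promoter sequence is not reported here.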

Additional observations from a re-analysis of the deposited data

How the results depend on the processing

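The count of 3204 called genes (1766 higher, 1438 lower in DMSO seedlings) was 3186 with DESeq2, 3152 without TMM, 3096 with at least 1 count in any library, 2892 with at least 10 counts in every library and 3204 (1652 higher, 1552 lower) with only the compared groups in the fit. Leaving out each library in turn gave 2547 to 2923 called, 1429 to 1646 higher and 1118 to 1277 lower. At an adjusted p under 0.01 the counts were 2151 called, 1216 higher and 935 lower, and with a change of at least 2-fold 1318, 842 and 476. No direction of a named gene reversed under any of these, and 128 of 173 named genes that were called stayed called in every one. A replicate block in the fit gave 3102 called genes, 1704 higher and 1398 lower. Deviations of same-numbered DMSO and untreated libraries correlated at 0.0379, -0.0168 and -0.0218. The labels do not say whether same-numbered libraries shared a plate or pool, and these values cannot decide it. Requiring at least 10 counts in every library, which left fewer genes tested, lowered the number higher from 23 to 15 for jasmonate, 19 to 11 for ethylene, salicylate and wounding, 16 to 10 for abscisic acid and cold, 16 to 9 for auxin and gibberellin, 11 to 7 for cell wall genes, 26 to 16 for receptor-like kinases, 13 to 6 for ethylene response factors, 12 to 5 for SAUR and AUX/IAA genes and 7 to 3 for small heat shock proteins. It also lowered the number lower from 5 to 3 for evening clock genes, 4 to 2 for ethylene response factors and 3 to 1 for antioxidants. Without TMM the number lower was 7 in place of 4 for both the chlorophyll and the photosystem genes, and with at least 1 count in any library 5 in place of 8 for pentatricopeptide repeat proteins and 2 in place of 4 for carbon fixation. Sulphate assimilation had 1 lower gene in place of 2 with that filter or with the compared groups only, and resistance proteins had 1 higher in place of 2 with DESeq2 or the replicate block. Requiring at least 10 counts in every library moved the median log2 fold change to -0.53 in place of -0.84 for evening clock genes, 0.44 in place of 0.76 for abscisic acid and cold, 0.24 in place of 0.93 for ethylene, salicylate and wounding, 0.21 in place of 0.73 for SAUR and AUX/IAA genes, 0.02 in place of 0.11 for cell wall genes and -0.0039 in place of 0.17 for auxin and gibberellin. With only the compared groups in the fit it was 0.51 for ethylene, salicylate and wounding, 0.47 for SAUR and AUX/IAA genes, 0.05 for auxin and gibberellin and -0.16 in place of -0.05 for carbon starvation. Medians near 0 moved by over 1.5 times when each library was left out in turn, with ranges of 0.06 to 0.18 for light signalling, -0.17 to -0.01 for carbon fixation, -0.14 to -0.01 for nitrogen assimilation, 0.04 to 0.18 for photosystem genes, 0.06 to 0.17 for cell wall genes, 0.04 to 0.11 for ribosomal proteins and 0.03 to 0.12 for lipid transfer and wax. The causes were not tested. Depth limits genes near the floor of 3 counts, and part of each library's reads fell on genes that were not analysed here.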

Other observations

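Several genes not described so far were called as well. AT5G63190 had 73.5, 65.6 and 73.99 CPM in DMSO seedlings and 379, 410.3 and 384 CPM in untreated seedlings, with a log2 fold change of -2.46 ± 0.10 (SE; adjusted p = 3.49e-12, edgeR), so that its 3 DMSO libraries lay close together and far below the untreated ones. Of 46 tested genes of lipid transfer and wax, 13 were higher (28.3%, beside 19.6% of all genes) and 4 lower (8.70%, beside 16.0%). Their median log2 fold change was 0.05. Of these KCS1 (AT1G01120), which lengthens fatty acids, had 498, 455 and 452 CPM in DMSO seedlings and 179, 152 and 173 CPM in untreated seedlings, with a log2 fold change of 1.48 ± 0.15 (SE; adjusted p = 3.68e-07, edgeR), and CER3 (AT5G57800), of alkane synthesis, had 424, 518 and 443 CPM in DMSO seedlings and 178, 166 and 166 CPM in untreated seedlings, with a log2 fold change of 1.44 ± 0.14 (SE; adjusted p = 2.04e-07, edgeR). The groups did not overlap at AT5G63190, KCS1 or CER3. Among the lipid transfer and wax genes the number higher was 14 without DMSO library 1 and 8 or 9 without any other library. The glycosyltransferase UGT74E2 (AT1G05680), which acts on an auxin precursor, had 64.5, 53.2 and 83.01 CPM in DMSO seedlings and 9.87, 6.95 and 5.63 CPM in untreated seedlings, with a log2 fold change of 3.16 ± 0.55 (SE; adjusted p = 0.00014, edgeR). AT2G43620 had 51.95, 257 and 191 CPM in DMSO seedlings and 8.33, 4.53 and 3.55 CPM in untreated seedlings, with DMSO library 1 the lowest and DMSO library 2 the highest of the group, as at the jasmonate genes.

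Of the genes tested, 19 had no count in any untreated library, and 12 of them were called higher. HSFA2 was the most abundant of the 19 in DMSO seedlings. BSMT1 (AT3G11480), a methyltransferase of salicylate and benzoate, was among the 19 and had 0, 14.02 and 1.20 CPM in DMSO seedlings and 0, 0 and 0 CPM in untreated seedlings, so its counts came mainly from 1 DMSO library. It was not called (edgeR, adjusted p = 0.0561), but was called without DMSO library 1 or without DMSO library 3 (edgeR, adjusted p = 0.0281 and 0.0467).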
